A study of Oryctolagus cuniculus with 12 samples.

Results

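The genes described here encode cytochrome P450 enzymes, flavin monooxygenases, the enzymes that conjugate foreign compounds and the enzymes that make and break down retinoids, in the conjunctiva of rabbits after filtering surgery. Members were all genes of the table whose symbol begins with CYP, FMO, GST with a class letter, UGT, SULT, ALDH, DHRS or RDH and a number, together with LOC100353821, which the annotation calls cytochrome P450 2F5. Of 86 genes that met this rule, 59 had at least 10 counts in at least 3 libraries and were taken as members, out of 14856 genes of the table that reached the same minimum and 20566 in all. The 27 others had at most 35 counts in any library, and 10 of them were at 0 in every library.

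The animals were female Japanese White rabbits, and the study's methods give an age of 12 to 14 weeks for its rabbits. The right eye underwent trabeculectomy (TL), an operation that opens a route for aqueous humour to drain under the conjunctiva, with mitomycin C, an alkylating agent that limits scarring. Operated conjunctiva with the filtration bleb was taken after 3 hours (TL-3h), 3 days (TL-3d) or 14 days (TL-14d), and conjunctiva of the unoperated left eye formed the control group (cont), with 3 libraries per group and 12 in all. By the study's methods, the operation also included general anaesthesia with ketamine and xylazine, an iodine wash, a conjunctival injection of betamethasone, a glucocorticoid, and an antibiotic ointment, so the effects of surgery, mitomycin C and these agents cannot be told apart. The labels do not tie a control eye to an operated eye and do not give the time at which a control was taken, so p-values measure the spread between these 12 samples only.

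Cytochrome P450 enzymes and flavin monooxygenases insert oxygen into lipophilic compounds, and glutathione transferases, glucuronosyltransferases and sulfotransferases then attach a polar group that allows the product to be exported. Retinol, supplied by tears and blood, is oxidized by dehydrogenases of the RDH and DHRS families to retinaldehyde and by aldehyde dehydrogenases of the ALDH1A group to retinoic acid, which enzymes of the CYP26 family degrade. The surface epithelium of the eye depends on retinoic acid to keep its wet, non-keratinized state.

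Libraries held 27111276 to 38591374 counts. Normalization factors were 0.768 to 0.783 in TL-3h and 1.03 to 1.13 elsewhere. Levels are given as CPM, the count of a gene relative to the scaled size of its library, and 3 counts, the limit that a count of 0 allows at 95% confidence and for counting error only, corresponded to 0.0712 to 0.1245 CPM. TL-14d 1 correlated more with the cont libraries (mean r = 0.969 over genes) than with the other TL-14d libraries (0.914), and results at 14 days are given for each library. Epithelial markers were present in every library, at a summed level of 6212 to 12200 CPM in cont, 5401 to 8515 in TL-3h, 7188 to 17880 in TL-3d and 10620 to 13950 in TL-14d. The neutrophil markers summed to 3.30 to 81.0 CPM in cont and 1142 to 2901 in TL-3h, where 6 of 6 rose, and to 126 to 752 in TL-3d, where 1 of 6 rose. Monocyte and macrophage markers summed to 74.7 to 620.2 CPM in cont, 650.7 to 1000 in TL-3h and 1304 to 2112 in TL-3d, where 4 of 6 rose. Endothelial markers summed to 63.7 to 275.3 CPM in cont, 605.6 to 1211 in TL-3h, where 2 of 5 rose, and 294 to 548.5 in TL-3d. Fibroblast markers ranged from 8719 to 53630 CPM in cont, from 69860 to 88440 in TL-3h and from 1182 to 45460 in TL-3d. The part of these cells in the results below was not tested, and in whole tissue fewer cells of a type and less RNA per cell cannot be told apart.

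In unoperated conjunctiva, 28 of the 59 members had a mean of at least 10 FPKM, a unit that corrects for transcript length and so allows levels of different genes to be compared, and 14 were under 1 FPKM. ALDH1A1, which oxidizes retinaldehyde to retinoic acid, was the most abundant at 571 ± 137 FPKM (SD, n = 3). CYP2A11, of the P450 subfamily that oxidizes coumarin and nicotine, followed at 499 ± 224 FPKM, and GSTP1, the pi-class glutathione transferase of epithelia, at 453 ± 55.2 FPKM. The spreads of CYP2A11 and of both others overlapped. Next came CYP4B1, a P450 of lung and ocular surface, at 205 ± 84.8 FPKM and ALDH1A3, a further retinaldehyde dehydrogenase, at 181 ± 59.5 FPKM, which also overlapped. The enzyme of acetaldehyde oxidation, ALDH2, was at 97.3 ± 9.76 FPKM, the mu-class transferase GSTM3 at 92.5 ± 40.1 FPKM and LOC100353821, of the P450 2F group that oxidizes naphthalene in the lung, at 74.8 ± 36.1 FPKM. The leading member of each other group was lower still: DHRS11 at 43.3 ± 9.26 FPKM, CYP27A1 at 16.7 ± 2.24 FPKM, UGT1-6 at 12.4 ± 1.54 FPKM and SULT4A1 at 0.169 ± 0.0802 FPKM.

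After surgery more of these genes fell than rose. At 3 hours 7 of 59 members rose and 17 fell (edgeR quasi-likelihood test, Benjamini-Hochberg adjusted p under 0.05 over all 14835 genes tested), when 23.2% of all genes tested rose and 22.2% fell, and 45.4% were called in all. At 3 days 4 rose and 17 fell (28.8% of members), when 10.6% of all genes rose, 7.0% fell and 17.6% were called. Of the 4 rises, that of SULT2B1 is a description only, as this gene met the minimum of counts through the TL-3d libraries alone. At 14 days none was called against cont, where 0% of all genes were called, and 8 members had an unadjusted p under 0.05, when 10.4% of all genes did. DESeq2 also called 0 members at 14 days. The median log2 fold change of the members was -0.33 at 3 hours, -0.22 at 3 days and -0.01 at 14 days, beside 0.02, 0.00 and 0.02 for all genes tested. With the 4 members at the limit of 3 counts set at their bound, the median at 3 hours was -0.29.

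Scaling and single libraries moved these counts. With libraries scaled by total count alone, the median of all genes shifted to -0.47 at 3 hours, and 3 members rose and 25 fell at that time, while the 4 and 17 at 3 days stayed. The 21 calls at 3 days fell to 4 without cont 1 and to 2 without cont 2, TL-3d 1 or TL-3d 2, and CYP2A11 and CYP4A7 were the only members that stayed called without any one library. Of the 24 calls at 3 hours, 13 held without any one library (13 calls in all without cont 1, 14 without cont 2). No called member changed direction against cont in any alternative.

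**Figure D1:**
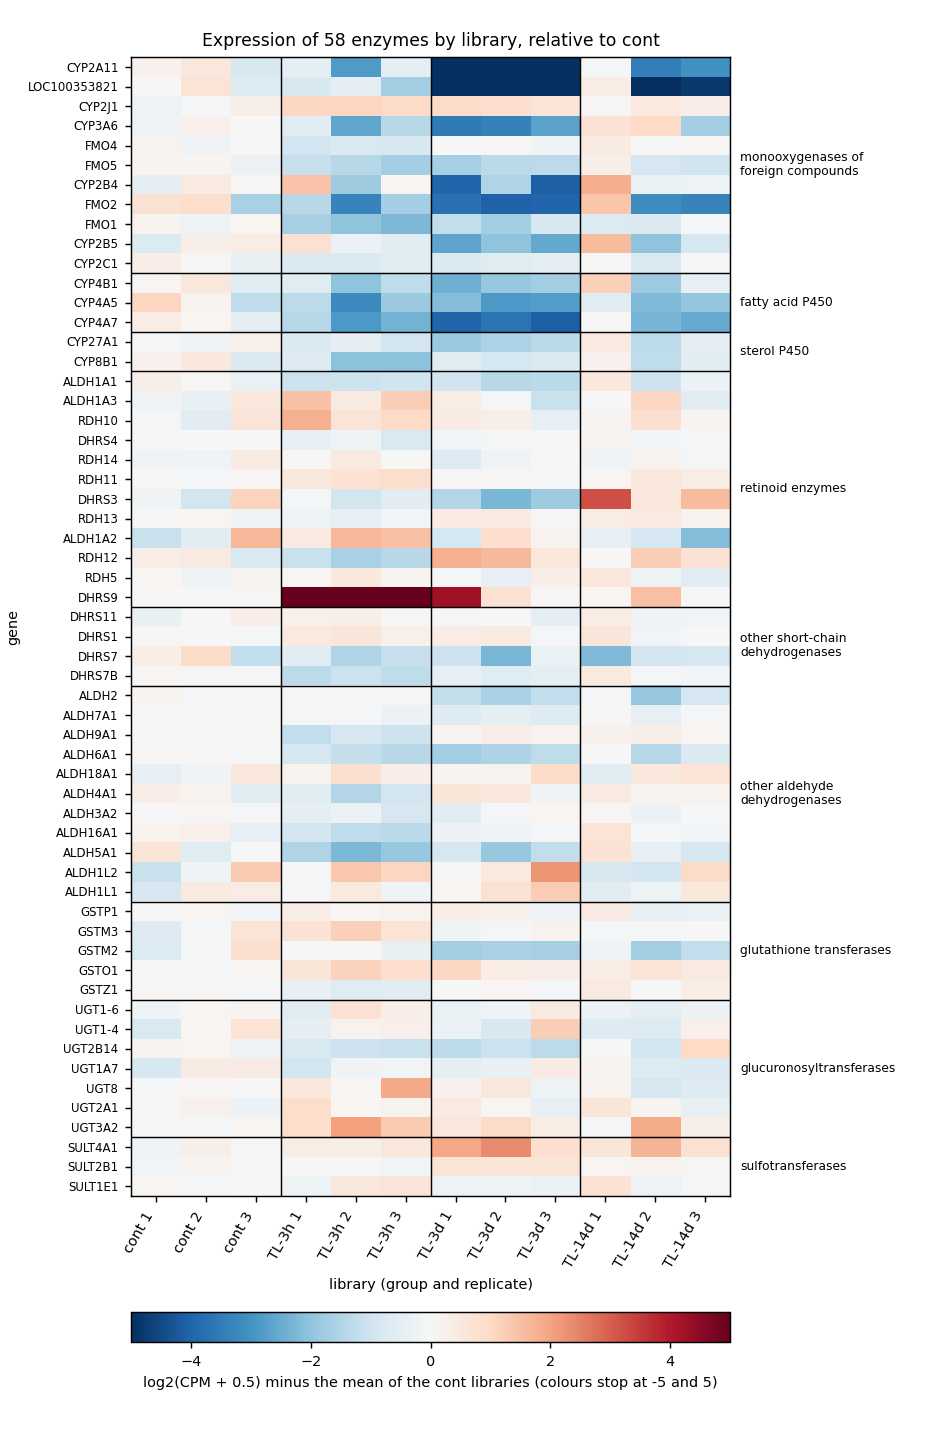
Levels of 58 members (one per line, grouped by role) in each of the 12 libraries (columns), coloured by log2(CPM + 0.5) minus the mean of the cont libraries, with colours ending at -5 and 5. CYP2A11, LOC100353821, CYP4A7 and FMO2 are dark blue in all TL-3d columns, DHRS9 is dark red in all TL-3h columns, and for CYP2A11, LOC100353821, FMO2 and CYP4A7 TL-14d 1 lies near cont where TL-14d 2 and TL-14d 3 are lower.

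A total of 6 members (FMO1, FMO5, CYP4A5, CYP4A7, ALDH1A1 and ALDH6A1) fell at both times (10.2%, beside 3.92% of all genes tested), CYP2J1 and DHRS9 rose at both (3.39%, beside 5.72%), and no member was called in opposite directions (1.48% of all genes). A further 11 fell at 3 days and were not called at 3 hours (18.6%, beside 2.83% of all genes), and 7 of these were lower at 3 days than at 3 hours by the test of that difference (11.9%, beside 1.74%). Another 11 fell at 3 hours and were not called at 3 days (18.6%, beside 17.1%), and 7 of these were higher at 3 days than at 3 hours (11.9%, beside 10.9%), shares near those of all genes. Tested directly, 10 members were higher and 13 lower in TL-3d than in TL-3h, when 18.4% of all genes tested were higher, 19.0% lower and 37.3% called in all. This split was 13 higher and 5 lower with scaling by total count alone, under which the median of all genes in this comparison was 0.43. No call at either time was made for 22 members (37.3%, beside 48.2% of all genes).

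**Figure D2:**
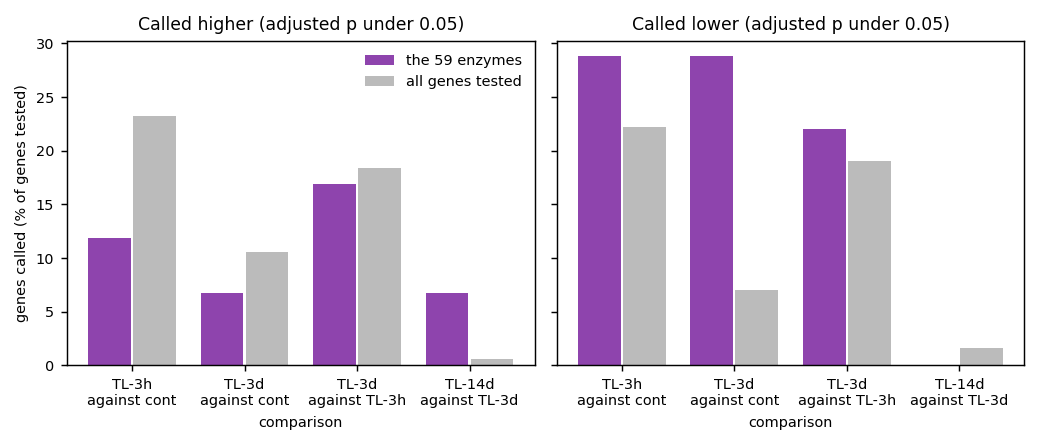
Percent of the 59 members (purple bars) and of all genes tested (grey bars) called higher (left) or lower (right) at an adjusted p under 0.05 in 4 comparisons. In TL-3d against cont 28.8% of members were lower beside 7.0% of all genes.

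The P450 genes of foreign compound metabolism included the 2 largest falls of any member at 3 days, CYP2A11 and LOC100353821. Of the 12 monooxygenases of foreign compounds (CYP2, CYP3 and FMO genes), 1 rose and 4 fell at 3 hours (8.33% and 33.3%, beside 23.2% and 22.2% of all genes) with a median log2 fold change of -1.19, and 1 rose and 7 fell at 3 days (8.33% and 58.3%, beside 10.6% and 7.0%) with a median of -3.05 (-2.53 with CYP2C1 at its bound). The calls in this group at 3 days went from 8 to 1, CYP2A11, without cont 2, TL-3d 1 or TL-3d 2. CYP2A11 measured 884, 1107 and 434 CPM in cont, 529, 106 and 551 in TL-3h, 2.92, 7.33 and 6.29 in TL-3d and 716, 70.5 and 90.5 in TL-14d. The TL-3d libraries lay below all others, and TL-3h overlapped cont. The mean was 146.5-fold lower in TL-3d than in cont (log2 fold change -7.20 ± 1.16 (SE), adjusted p = 0.0100), while the change at 3 hours was -1.03 ± 0.89 (adjusted p = 0.381). LOC100353821 fell from 123, 198 and 77.9 CPM in cont to 0.1999, 0 and 0.0285 in TL-3d (log2 fold change -10.60 ± 2.36, adjusted p = 0.0189), after 70.3, 89.2 and 36.4 CPM in TL-3h. Both were also lower in TL-3d than in TL-3h, by -6.17 ± 1.11 for CYP2A11 and -9.58 ± 2.30 for LOC100353821, and these calls held without any one library. The call of LOC100353821 against cont was lost without cont 1, cont 2, TL-3d 1 or TL-3d 2, with adjusted p of 0.0525 to 0.0747, and without TL-3d 1, when TL-3d held at most 3 counts per library, it was at least 1496-fold lower than cont and at least 734.6-fold lower than TL-3h.

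CYP3A6 belongs to the subfamily with the broadest range of drug substrates. It measured 31.2, 44.1 and 36.8 CPM in cont, 24.6, 5.64 and 13.9 in TL-3h and 2.75, 3.08 and 5.32 in TL-3d. All TL-3d libraries were below all others, and at 3 days the gene was 10.1-fold lower than in cont (log2 fold change -3.33 ± 0.71, adjusted p = 0.0173, lost without cont 2, TL-3d 1 or TL-3d 2 at 0.0561 to 0.0689). CYP2B5, of the phenobarbital-inducible P450 subfamily, fell from 1.54, 3.55 and 3.81 CPM in cont to 0.02498, 0.308 and 0.0569 in TL-3d (-4.52 ± 1.28, adjusted p = 0.0385, and up to 0.123 without TL-3d 1). Without TL-3d 2 it was at least 37.0-fold lower, since the other TL-3d libraries held at most 3 counts. Its relative CYP2B4 had 8.57, 16.9 and 12.8 CPM in cont and 0.300, 4.003 and 0.256 in TL-3d, with a fold change of -3.08 on the log2 scale that missed the threshold (adjusted p = 0.0915). CYP2C1 was scarcely present, at 0.522, 0.350 and 0.1254 CPM in cont and 0, 0 and 0.0366 in TL-3h, at least 2.85-fold lower at 3 hours (adjusted p = 0.0394, and up to 0.113 without TL-3h 1 or TL-3h 2). Without cont 1 this bound was 2.04-fold.

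CYP2J1 was the 1 monooxygenase that rose. The enzyme belongs to a subfamily that converts arachidonic acid to epoxides. It measured 34.7, 39.8 and 50.8 CPM in cont, 85.2, 87.2 and 81.0 in TL-3h, 81.0, 74.4 and 65.1 in TL-3d and 43.2, 57.4 and 51.8 in TL-14d. Neither TL-3h nor TL-3d overlapped cont, with log2 fold changes of 1.02 ± 0.16 (adjusted p = 0.000750) and 0.82 ± 0.16 (adjusted p = 0.0148, lost without cont 1, cont 2, TL-3d 1 or TL-3d 2 at 0.0553 to 0.0578). Of its 2 transcripts tested, the main one went from a mean of 30.3 to 65.7 CPM at 3 hours and the other from 10.4 to 14.2 CPM.

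Flavin monooxygenases, which oxidize nitrogen and sulfur atoms of drugs and dietary amines, fell in different orders. FMO1 had 4.98, 3.48 and 4.59 CPM in cont, 1.04, 0.705 and 0.512 in TL-3h and 1.52, 0.955 and 2.28 in TL-3d. It was lower than every control at both times, by -2.53 ± 0.42 at 3 hours (adjusted p = 0.000927) and -1.45 ± 0.40 at 3 days (adjusted p = 0.0348, and up to 0.117 without TL-3d 2). FMO5 behaved alike, with 30.4, 29.8 and 22.4 CPM in cont, 12.2, 10.2 and 8.16 in TL-3h and 8.39, 10.3 and 10.9 in TL-3d. Its changes were -1.44 ± 0.33 at 3 hours (adjusted p = 0.00572) and -1.48 ± 0.33 at 3 days (adjusted p = 0.0192, and up to 0.0734 without TL-3d 1), and both of its transcripts fell at 3 hours. FMO4 fell at 3 hours only: it had 23.9, 18.5 and 21.0 CPM in cont, 10.7, 12.03 and 11.8 in TL-3h and 21.4, 21.9 and 18.4 in TL-3d. Its TL-3h libraries lay below all others, the change was -0.87 ± 0.16 at 3 hours (adjusted p = 0.00166) and -0.04 at 3 days (adjusted p = 0.884), and TL-3d was higher than TL-3h by 0.84 (adjusted p = 0.00274). FMO2, the main form of lung, varied widely in cont, at 19.6, 20.9 and 3.29 CPM, and had 3.998, 0.664 and 3.11 CPM in TL-3h and 0.375, 0.216 and 0.256 CPM in TL-3d. TL-3d did not overlap cont and was 51.7-fold lower (-5.66 ± 1.58, adjusted p = 0.0371), a call lost without cont 1, cont 2, TL-3h 1, TL-3h 3 or any TL-3d library, with adjusted p of up to 0.124. DESeq2 gave a change of -5.70 and no adjusted p for it. Beside these falls at 3 days the epithelial markers summed to 7188 to 17880 CPM in TL-3d and 6212 to 12200 in cont, with 2 of 9 risen (KRT5 and DSG3) and 1 fallen (KRT15). Schwann cell markers summed to 7.14 to 11.2 CPM in TL-3d, below the 16.4 to 24.9 CPM of cont, with 0 of 5 called, and goblet cell markers to 164.8 to 255 CPM in TL-3d and 62.3 to 232.9 in cont. Most of the goblet sum was AGR2 (0.80 on the log2 scale), while SPDEF (-1.93, adjusted p = 0.0893) and FOXA3 (-1.60, adjusted p = 0.186) had values below 0, with TL-3d below every control, and none of the 3 was called. The part of these cells in the falls was not tested.

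**Figure D3:**
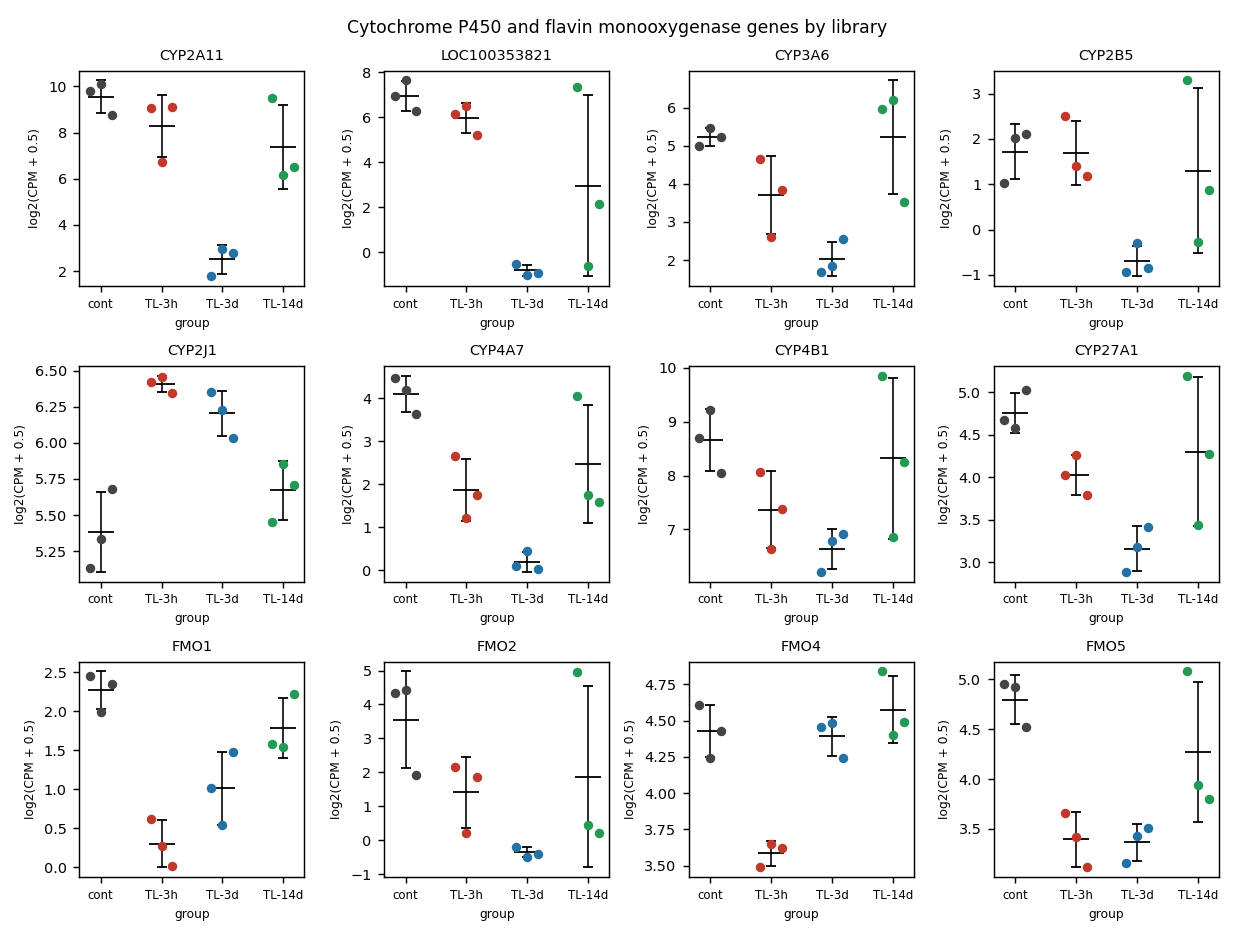
Levels of 12 P450 and FMO members as log2(CPM + 0.5) in each library (points, coloured by group), with the mean and SD of each group of 3 (bars). TL-3d libraries of CYP2A11, LOC100353821, CYP3A6 and CYP4A7 lie below every control, and TL-14d 1 lies apart from TL-14d 2 and TL-14d 3 for CYP2A11 and LOC100353821.

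Members that fell at 3 days included neighbours on the genome. The 10 successive CYP2 genes between 262906407 and 263205091 of the joined unplaced sequence of OryCun2.0, a stretch of 299 kb, included 4 members (CYP2B5, CYP2B4, CYP2A11 and LOC100353821) and 6 genes that are no members, among them CYP2G1, which met the rule on symbols but not the minimum of counts. Of the 9 tested, 6 fell at 3 days, when 7.0% of all genes did, and of these only CYP2A11 stayed called without any one library. Besides the 3 members these were LOC100359087, annotated as cytochrome P450 2B4-like (at least 20.4-fold lower, adjusted p = 0.0269, and up to 0.0987 without TL-3d 2), LOC100328948, annotated as cytochrome P-450 (-4.43, adjusted p = 0.0296), and LOC100354078, annotated like LOC100353821 as cytochrome P450 2F5 (-4.39, adjusted p = 0.0179, and up to 0.0724 without TL-3d 2). CYP2B4 (-3.08, adjusted p = 0.0915) and LOC100353574, a second 2B4 gene (-2.49, adjusted p = 0.0853), had values below 0 and missed the threshold. LOC100353317, annotated as cytochrome P450 2S1 at one end of the stretch, measured 0.07 (adjusted p = 0.943). CYP2G1 was too low to be tested. The 2B genes share sequence, and 100% of the CYP2B5 values and 91.7% of the CYP2B4 values were fractions of counts, beside 25% for CYP2A11 and 16.7% for LOC100353821, so the division of reads among the 2B genes is uncertain.

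**Figure D4:**
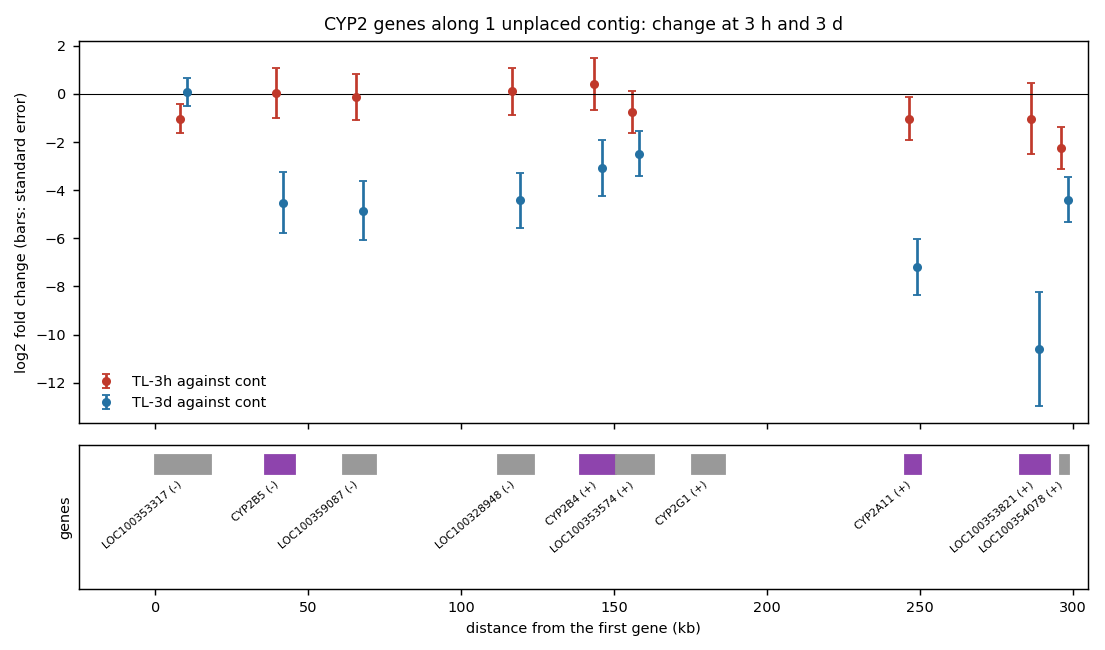
Log2 fold change with its SE in TL-3h (red) and TL-3d (blue) against cont for the CYP2 genes of 1 stretch of unplaced sequence, by distance in kb from the first gene, with members as purple boxes, other genes as grey boxes and the strand after each name. At 3 days all genes tested but LOC100353317 lie below 0, and LOC100353821 is lowest at -10.60. The fitted value drawn for LOC100359087 at 3 days comes from at most 3 counts per TL-3d library.

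Of 3 P450 enzymes of fatty acids, CYP4A5 and CYP4A7, which hydroxylate the omega end of fatty acids, fell at 3 hours and at 3 days, and CYP4B1 missed the threshold at both times. These falls were 66.7% of the group at each time, beside 22.2% of all genes at 3 hours and 7.0% at 3 days. At 3 hours 0 were called without cont 1, TL-3h 2 or TL-3h 3. CYP4A7 measured 21.5, 17.6 and 11.9 CPM in cont, 5.77, 1.82 and 2.85 in TL-3h, 0.575, 0.862 and 0.512 in TL-3d and 16.1, 2.88 and 2.51 in TL-14d. The groups cont, TL-3h and TL-3d did not overlap, with changes of -2.29 ± 0.71 at 3 hours (adjusted p = 0.0243, up to 0.0779 without TL-3h 2, and -2.91 without TL-3h 1) and -4.71 ± 0.80 at 3 days (adjusted p = 0.0110). CYP4A5 had 208, 112 and 40.6 CPM in cont, 39.3, 10.4 and 26.5 in TL-3h and 21.5, 13.1 and 13.9 in TL-3d. Its changes of -2.24 ± 0.68 (adjusted p = 0.0209) and -2.89 ± 0.69 (adjusted p = 0.0233) rested in part on cont 1, without which they were -1.58 (adjusted p = 0.0896) and -2.24 (adjusted p = 0.0802). The CYP4A7 gene lies within the annotated span of CYP4A5 on the same strand, so reads could be divided between them. CYP4B1 had 417, 593 and 265 CPM in cont, 268, 99.0 and 166 in TL-3h and 73.6, 109.5 and 119.9 in TL-3d. No TL-3d library reached the lowest control, but the difference of -2.07 ± 0.67 missed the threshold (adjusted p = 0.0574). It was called with DESeq2 (adjusted p = 0.00718), with only the 6 libraries compared (0.0164) and without TL-14d 1 (0.0156) or TL-14d 2 (0.0241), and at 3 hours with scaling by total count (-1.77, adjusted p = 0.0475).

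Among P450 enzymes of sterols, CYP27A1, the mitochondrial sterol 27-hydroxylase, had 24.9, 23.3 and 32.0 CPM in cont, 15.8, 18.7 and 13.3 in TL-3h and 6.89, 8.53 and 10.2 in TL-3d. It fell at 3 days (-1.65 ± 0.38, adjusted p = 0.0216, and up to 0.0810 without TL-3d 1) and its value at 3 hours was -0.74 (adjusted p = 0.134). At 3 hours it was called with scaling by total count, with only the 6 libraries compared and without TL-14d 1 or TL-14d 2. The sterol 12-alpha-hydroxylase CYP8B1, known from bile acid synthesis, had 6.74, 8.55 and 3.29 CPM in cont and 3.50, 1.04 and 1.02 in TL-3h. The highest TL-3h library overlapped the lowest control, and the fall at 3 hours was -1.74 ± 0.59 (adjusted p = 0.0335, and up to 0.110 without cont 2). Leaving out TL-3h 1 moved it to -2.63.

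Of 12 retinoid enzymes, 3 rose and 3 fell at 3 hours (25.0% each, near the 23.2% and 22.2% of all genes), and 1 rose and 2 fell at 3 days (8.33% and 16.7%, beside 10.6% and 7.0%). Without any one library DHRS9, RDH11 and RDH12 stayed called at 3 hours, and at 3 days 0 were called without cont 1, cont 2, TL-3d 1 or TL-3d 2. Their median log2 fold change at 3 hours was 0.34, and -0.15 with libraries scaled by total count. Among the enzymes that oxidize retinol, DHRS9 was close to absent in cont at 0.0237, 0.02501 and 0.0502 CPM and measured 107, 97.9 and 52.1 CPM in TL-3h. It was at least 1162-fold higher at 3 hours (adjusted p = 0.00188). In TL-3d it had 9.49, 0.400 and 0.0569 CPM, and the rise at 3 days was at least 44.9-fold (adjusted p = 0.0448). This call was lost without any of 9 of the 12 libraries, at adjusted p of 0.0524 to 0.287, with the highest and a rise of at least 3.10-fold without TL-3d 1, and also without a filter on low counts (0.0502). RDH10, which supplies most retinaldehyde in the embryo, had 80.7, 60.1 and 138 CPM in cont and 299, 136 and 175 in TL-3h. The lowest TL-3h library lay just under the highest control, and the rise of 1.13 ± 0.39 (adjusted p = 0.0368) was 0.65 (adjusted p = 0.177) with scaling by total count and reached an adjusted p of 0.179 without TL-3h 1.

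RDH11 and RDH12, adjacent genes on chromosome 20 whose enzymes reduce retinaldehyde, moved in opposite directions at 3 hours. RDH11 had 11.8, 11.6 and 12.4 CPM in cont, 18.1, 20.1 and 22.2 in TL-3h and 12.5, 12.4 and 11.4 in TL-3d. TL-3h lay above both other groups, at 0.75 ± 0.15 against cont (adjusted p = 0.00269), although with scaling by total count the change was 0.25 (adjusted p = 0.201). RDH12 had 1.61, 1.75 and 0.477 CPM in cont, 0.269, 0.0415 and 0.146 in TL-3h and 5.30, 4.62 and 1.94 in TL-3d. It fell at 3 hours (-3.03 ± 0.75, adjusted p = 0.00824), and TL-3d lay above all libraries of cont and TL-3h, with 1.62 ± 0.65 against cont (adjusted p = 0.105) and 4.65 ± 0.78 against TL-3h (adjusted p = 0.00135). Without TL-3h 1 the fall at 3 hours was -3.75 and the difference between TL-3d and TL-3h was 5.35. DHRS3, a retinaldehyde reductase that retinoic acid is known to induce, had 3.25, 1.75 and 8.88 CPM in cont and 1.05, 0.369 and 0.740 in TL-3d. It fell at 3 days (-2.67 ± 0.81, adjusted p = 0.0464), and 10 of the 12 single libraries ended this call when left out, with adjusted p of up to 0.150 without TL-3d 2 and a change of -1.81 without cont 3. DHRS4, a reductase of retinaldehyde and other carbonyls, fell slightly at 3 hours (-0.46 ± 0.15, adjusted p = 0.0262, and up to 0.0701 without cont 2).

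The enzymes that form retinoic acid differed from each other. ALDH1A1 had 1317, 1145 and 854 CPM in cont, 509.6, 512 and 549 in TL-3h, 550.0, 414 and 429.8 in TL-3d and 1551, 526 and 887 in TL-14d. Both early groups lay below every control, at -1.08 ± 0.34 (adjusted p = 0.0241, and up to 0.0805 without cont 1) and -1.25 ± 0.34 (adjusted p = 0.0333, and up to 0.115 without TL-3d 2). ALDH1A3 had 243, 211 and 409 CPM in cont, 753, 377 and 657 in TL-3h, 358, 263 and 129 in TL-3d and 276, 564 and 193 in TL-14d. TL-3h overlapped cont, and the difference of 1.05 ± 0.49 missed the threshold (adjusted p = 0.104). ALDH1A2 ranged from 2.44 to 20.1 CPM in cont and was not called at any time.

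The CYP26 genes, which degrade retinoic acid, carry LOC numbers in this annotation and fell outside the rule. LOC100346910, annotated as cytochrome P450 26A1, had 17.1, 9.08 and 4.44 CPM in cont, 1.54, 0.373 and 0.842 in TL-3h, 39.7, 43.9 and 19.4 in TL-3d and 31.0, 80.8 and 10.8 in TL-14d. It was 11.1-fold lower than cont at 3 hours (-3.47 ± 0.83, adjusted p = 0.00672), and TL-3d lay above every control at 1.75 (adjusted p = 0.120) and was higher than TL-3h by 5.21 ± 0.88 (adjusted p = 0.00141). Without cont 1 the fall at 3 hours was -2.87, and without TL-3h 1 it was -4.11 and the difference between TL-3d and TL-3h 5.84. The 26C1 gene LOC100346650 also fell at 3 hours, at least 7.92-fold (adjusted p = 0.00876, and at least 3.22-fold without cont 1), from at most 2.02 CPM in cont, and the 26B1 gene LOC100341926 was not called.

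**Figure D5:**
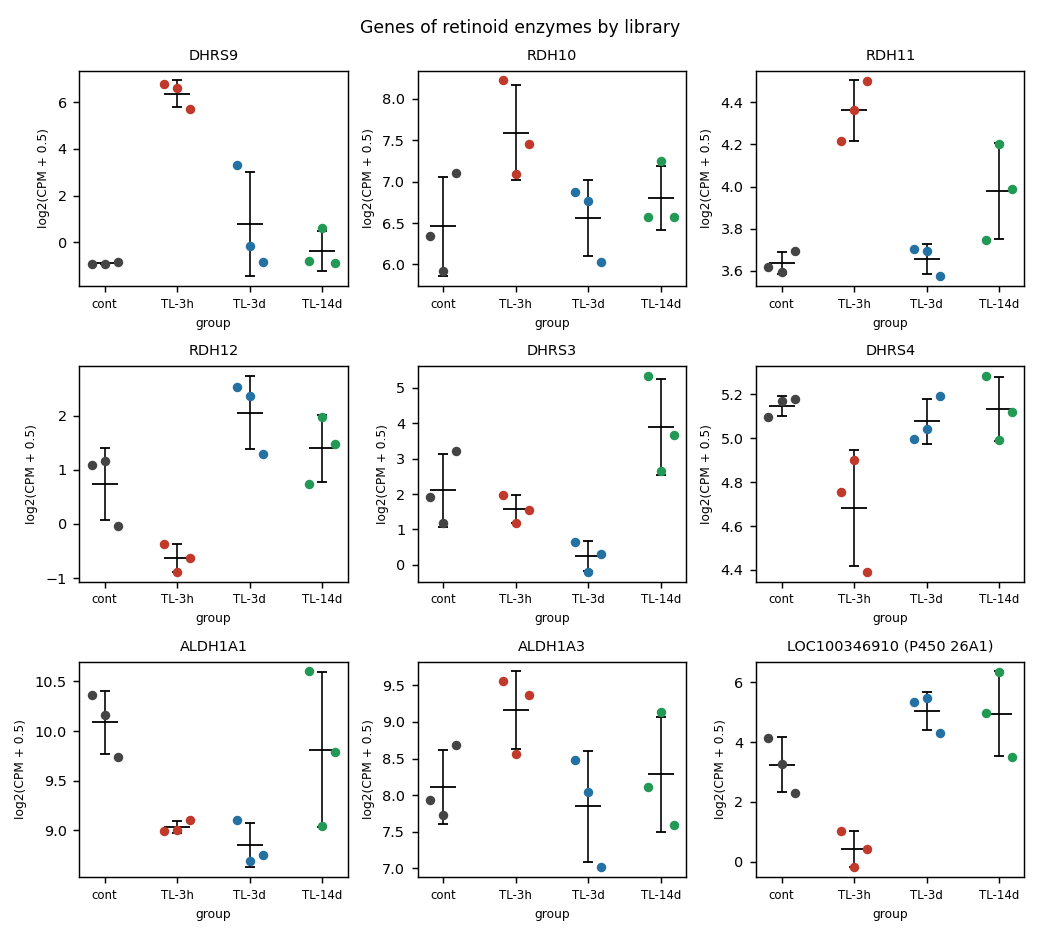
Levels of 8 retinoid enzymes and LOC100346910 as log2(CPM + 0.5) in each library (points, coloured by group), with the mean and SD of each group of 3 (bars). DHRS9 is highest in TL-3h, RDH12 and LOC100346910 (P450 26A1) are lowest there, and ALDH1A1 of TL-3h and TL-3d lies below every control.

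Of 11 aldehyde dehydrogenases outside the retinoid group, none rose and 5 fell at 3 hours, when 22.2% of all genes fell, and none rose and 3 fell at 3 days, when 7.0% of all genes fell. The median log2 fold change was -0.51 at 3 hours and -0.15 at 3 days. The 3 falls at 3 days were lost without cont 1, cont 2, TL-3d 1 or TL-3d 2. ALDH9A1, which makes a precursor of carnitine, had 87.2, 85.2 and 87.7 CPM in cont, 36.3, 48.9 and 41.9 in TL-3h and 96.0, 108 and 97.5 in TL-3d. The fall to 3 hours was uniform (-1.03 ± 0.12, adjusted p = 0.000172) and TL-3d was higher than TL-3h by 1.25 ± 0.12 (adjusted p = 7.55e-05). The mitochondrial enzymes ALDH4A1 of proline breakdown, ALDH5A1 of succinic semialdehyde oxidation and ALDH6A1 of valine breakdown also fell at 3 hours. ALDH5A1 had 24.6, 10.1 and 14.9 CPM in cont and 5.19, 2.90 and 3.84 in TL-3h (4.16-fold lower, adjusted p = 0.00728). ALDH4A1 had 51.7, 47.4 and 28.9 CPM in cont, 27.7, 14.8 and 21.4 in TL-3h and 62.5, 59.6 and 36.1 in TL-3d, with a change at 3 hours of -1.0 ± 0.29 (adjusted p = 0.0184, and up to 0.0692 without cont 1) and a difference of 1.31 between TL-3d and TL-3h (adjusted p = 0.00658). ALDH16A1, whose catalytic role is uncertain, fell by 1.25 on the log2 scale at 3 hours (adjusted p = 0.00319). TL-3h lay below every control in each of these genes.

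ALDH2 and ALDH6A1 were low at 3 days. ALDH2 had 219, 184 and 196 CPM in cont, 192, 184 and 184 in TL-3h and 86.5, 65.3 and 85.1 in TL-3d. The values of TL-3h lay among those of cont (-0.10, adjusted p = 0.843), while TL-3d was 2.53-fold lower (-1.34 ± 0.35, adjusted p = 0.0303, and up to 0.111 without TL-3d 2). ALDH6A1 had 98.2, 98.3 and 89.6 CPM in cont, 52.4, 41.5 and 35.7 in TL-3h and 28.3, 32.1 and 39.6 in TL-3d, at -1.14 ± 0.31 (adjusted p = 0.0128) and -1.52 ± 0.31 (adjusted p = 0.0165, and up to 0.0633 without TL-3d 2). ALDH7A1, of lysine breakdown, had the narrowest spread of these at 82.0, 78.5 and 84.4 CPM in cont and 51.5, 57.3 and 52.7 in TL-3d (-0.60 ± 0.13, adjusted p = 0.0177, and up to 0.0661 without TL-3d 1). Of 4 other short-chain dehydrogenases only DHRS7B was called against cont, lower at 3 hours (25.0%, near the 22.2% of all genes). It had 11.4, 11.2 and 9.93 CPM in cont and 4.08, 4.90 and 4.24 in TL-3h (-1.30 ± 0.20, adjusted p = 0.000716). DHRS11, the most abundant of them, had 47.9, 62.5 and 78.8 CPM in cont, and each operated group overlapped cont.

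Of 5 glutathione transferases, 2 rose and 1 fell at 3 hours (40% and 20%, beside 23.2% and 22.2% of all genes), and none rose and 1 fell at 3 days (20%, beside 7.0%). Their summed level was 577.5 to 647.0 FPKM in cont, 534 to 571 in TL-3h, 529.7 to 726 in TL-3d and 486 to 753.5 in TL-14d. GSTP1, which made up most of it, had 360.2, 381 and 320.0 CPM in cont, 449.7, 374 and 399 in TL-3h and 449, 408 and 309.7 in TL-3d, and its value at 3 hours was 0.20 ± 0.22 (adjusted p = 0.492). GSTO1, an omega-class enzyme that reduces dehydroascorbate, rose at 3 hours from 17.99, 18.4 and 20.5 CPM to 29.2, 43.0 and 34.4 (0.91 ± 0.21, adjusted p = 0.00584), and with scaling by total count it measured 0.41 (adjusted p = 0.133). The neighbouring mu-class genes GSTM3 and GSTM2 on chromosome 13 differed. GSTM3 had 46.8, 69.7 and 119 CPM in cont and 119, 166 and 119 in TL-3h, and its rise of 0.78 ± 0.29 (adjusted p = 0.0498) was lost without any of 11 of the 12 libraries (up to 0.188, without TL-3h 2) and measured 0.30 (adjusted p = 0.371) with scaling by total count. GSTM2 had 29.9, 44.1 and 83.0 CPM in cont, 48.2, 48.2 and 37.0 in TL-3h and 14.1, 15.03 and 14.7 in TL-3d. All TL-3d libraries were below all of cont and TL-3h, at -1.84 ± 0.43 against cont (adjusted p = 0.0216, and up to 0.0747 without TL-3d 1). GSTZ1, which works in tyrosine breakdown, fell by 0.53 on the log2 scale at 3 hours (adjusted p = 0.0200, and 0.0617 without cont 1 or 0.0624 without cont 2).

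The transferases of glucuronic acid and sulfate were mostly low. UGT1-6, the most abundant glucuronosyltransferase, had 21.9, 27.7 and 28.5 CPM in cont, 17.1, 44.6 and 32.7 in TL-3h and 20.2, 23.0 and 35.6 in TL-3d and was not called. It overlaps UGT1A7 and UGT1-4 in the annotation, so their reads cannot be separated with certainty. UGT2B14 had 1.66, 1.63 and 1.15 CPM in cont and 0.300, 0.431 and 0.285 in TL-3d, lower than every control (-2.12 ± 0.59, adjusted p = 0.0363, and up to 0.117 without TL-3d 1). UGT3A2, chosen after its values were seen, had 0, 0 and 0.0502 CPM in cont and 0.461, 1.66 and 0.768 in TL-3h, at least 13.0-fold higher (adjusted p = 0.0176, and up to 0.0655 without cont 1). Without TL-3h 2 this bound was 8.33-fold. SULT4A1, a sulfotransferase best known from brain, rose from 0.237, 0.525 and 0.276 CPM in cont to 2.70, 3.85 and 0.996 in TL-3d (2.85 ± 0.61, adjusted p = 0.0175, and up to 0.0684 without cont 1). SULT2B1, which sulfates cholesterol in squamous epithelium, was also named after its values were seen. It measured 0.0712, 0.2001 and 0.1254 CPM in cont and 0.525, 0.462 and 0.484 in TL-3d (1.87 ± 0.45, adjusted p = 0.0232, and up to 0.0902 without cont 1). As it met the minimum of counts through the TL-3d libraries alone, this rise is a description only. The oestrogen sulfotransferase SULT1E1 stayed under 1 CPM in all libraries.

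At 14 days the levels of the members that had fallen differed between libraries. All 17 members that fell at 3 days had a log2 fold change above 0 in TL-14d against TL-3d, and in 11 of them every TL-14d library lay above every TL-3d library. Since the rule of this count used the TL-3d values and no share over all genes was computed, it is a description only. The test called 4 of the 59 members higher, when 0.647% of all genes tested were higher, 1.59% lower and 2.24% called in all: DHRS3 (4.73, adjusted p = 0.0331), CYP2A11 (5.73, adjusted p = 0.0344), CYP3A6 (3.71, adjusted p = 0.0349) and CYP4A7 (3.46, adjusted p = 0.0496). None of these held when TL-14d 1, TL-14d 3 or any TL-3d library was left out, with adjusted p of up to 0.178. Without TL-14d 1 the changes were 3.64 for DHRS3, 3.87 for CYP2A11 and 2.05 for CYP4A7.

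The median over those 17 members of the level relative to the mean of cont was 105.2% in TL-14d 1, 36.7% in TL-14d 2 and 48.6% in TL-14d 3, beside 22.7%, 21.9% and 19.2% in the TL-3d libraries. TL-14d 1 was the highest TL-14d library in 14 of the 17 and reached the lowest control in 16, while TL-14d 2 lay below the lowest control in 15 and TL-14d 3 in 13. The 17 were chosen by their cont and TL-3d values, and the same counts were not made over all genes. These medians and counts are therefore a description only. LOC100353821 was the most divided, at 161 CPM in TL-14d 1, 0.163 in TL-14d 2 and 3.94 in TL-14d 3. DHRS3 had 40.01, 5.76 and 12.3 CPM, above the highest control in TL-14d 1 and TL-14d 3. Without TL-14d 1, 8 members were lower than cont at 14 days and none higher, when 1.22% of all genes were lower, 3.51% higher and 4.74% called in all (ALDH2, ALDH6A1, CYP2A11, CYP4A7, FMO2, FMO5, GSTM2 and LOC100353821), with CYP2A11 at -3.33 (adjusted p = 0.0461) and LOC100353821 at -6.04 (adjusted p = 0.0314).

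Genes that supply or accompany these enzymes were counted from lists set beside the members. Among 11 tested cofactors and phase I enzymes other than P450, 1 rose and 3 fell at 3 hours and 1 rose and 3 fell at 3 days. At 3 hours 27.3% of this list fell beside 22.2% of all genes and 9.09% rose beside 23.2%, and at 3 days 27.3% fell beside 7.0% of all genes. The 1 rise at 3 hours, AKR1B1, was lost with scaling by total count (0.56, adjusted p = 0.0767). The 4 calls at 3 days went to 2, AKR1B1 and AOX1, without cont 1, cont 2, TL-3d 1 or TL-3d 2. POR, the reductase that passes electrons to microsomal P450 enzymes, had 137, 169 and 136 CPM in cont, 116, 66.1 and 114 in TL-3h and 88.2, 73.3 and 56.1 in TL-3d. TL-3d lay below every control (-1.02 ± 0.27, adjusted p = 0.0293, and up to 0.0949 without cont 2). Soluble epoxide hydrolase, EPHX2, which opens fatty acid epoxides, had 55.0, 58.7 and 36.6 CPM in cont, 22.1, 18.3 and 16.5 in TL-3h and 14.7, 17.8 and 21.7 in TL-3d and fell at both times, at 3 days with an adjusted p of up to 0.0670 without TL-3d 1. Aldose reductase, AKR1B1, rose from 10.8, 17.9 and 20.3 CPM in cont to 69.3, 63.1 and 75.8 in TL-3d (adjusted p = 0.00695).

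Of 17 tested genes for other conjugation steps and glutathione supply, 5 rose and 6 fell at 3 hours (29.4% and 35.3%, beside 23.2% and 22.2% of all genes) and 2 rose and 2 fell at 3 days (11.8% each, beside 10.6% and 7.0%). The 4 calls at 3 days (ABCC3, ABCC4, GSR and UGDH) were all lost without cont 1, cont 2, TL-3d 1 or TL-3d 2. Of the 11 at 3 hours 7 held without any one library, and the rises of NAT1 (adjusted p = 0.597) and TPMT (adjusted p = 0.142) were lost with scaling by total count. UGDH, which makes the UDP-glucuronic acid used by glucuronosyltransferases and for hyaluronan, had 99.1, 88.2 and 119 CPM in cont, 1745, 2164 and 1612 in TL-3h, 164, 167 and 211 in TL-3d and 84.7, 114 and 112 in TL-14d. Its TL-3h libraries lay far above all others (log2 fold change 4.17 ± 0.22, adjusted p = 1.59e-05). GCLC, the catalytic subunit of the first step of glutathione synthesis, rose from 49.6, 42.4 and 49.6 CPM to 198, 236 and 251 at 3 hours (2.27 ± 0.23, adjusted p = 6.92e-05), while GSR, which regenerates reduced glutathione, fell from 104, 112 and 76.9 CPM to 30.8, 21.4 and 27.7 (-1.88 ± 0.21, adjusted p = 0.000126). Of the pair that makes the sulfate donor, PAPSS2 rose from 4.79, 5.23 and 22.7 CPM to 51.1, 42.3 and 80.5 at 3 hours (2.41, and 3.47 without cont 3) and PAPSS1 fell from 132, 134 and 104 CPM to 59.5, 49.8 and 50.7 (-1.21). In each of these genes TL-3h did not overlap cont.

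Of 9 tested xenobiotic sensors, 3 rose and 2 fell at 3 hours (33.3% and 22.2%, beside 23.2% and 22.2% of all genes) and none rose and 1 fell at 3 days (11.1%, beside 7.0%). TIPARP and PPARA were called at 3 hours without any one library, and the other rises were lost with scaling by total count, where AHR measured 0.83 (adjusted p = 0.151) and NFE2L2 -0.02 (adjusted p = 0.922). TIPARP, a known target of the aryl hydrocarbon receptor, had 56.6, 45.6 and 225 CPM in cont and 741, 1044 and 751 in TL-3h (2.96 ± 0.55, adjusted p = 0.00183, and 3.99 without cont 3). PPARA, a fatty acid receptor known to act on CYP4A genes, had 90.4, 83.3 and 82.8 CPM in cont, 21.5, 15.1 and 21.6 in TL-3h and 36.9, 46.0 and 45.8 in TL-3d. It fell at 3 hours (-2.14 ± 0.27, adjusted p = 0.000220) and at 3 days, where the call was lost at an adjusted p of up to 0.107 without TL-3d 1. Of 16 tested genes of retinoid binding, storage and reception, 2 rose and 4 fell at 3 hours (12.5% and 25.0%, beside 23.2% and 22.2% of all genes) and 1 rose and 3 fell at 3 days (6.25% and 18.8%, beside 10.6% and 7.0%). The 4 calls at 3 days (RARA, BCO2, RARB and RARRES1) were all lost without cont 2 or TL-3d 2. RARA, a retinoic acid receptor, rose at 3 hours from 14.98, 18.5 and 18.5 CPM to 47.6, 57.5 and 30.8 (1.39, adjusted p = 0.000635), and RARB, a receptor gene known to be induced by retinoic acid, fell from 40.8, 25.4 and 46.3 CPM to 6.04, 7.47 and 12.9 (-2.09, adjusted p = 0.00302). FABP5, which carries retinoic acid and fatty acids, rose from 65.6, 72.0 and 40.6 CPM to 431, 129 and 380.3 (2.40, adjusted p = 0.00117). The adjusted p of each of these genes at 3 hours stayed under 0.05 without any one library.

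A further 43 genes with LOC numbers that are no members matched a search of the annotation for the family names, which missed other spellings such as the cytochrome P-450 of LOC100328948. Of the 42 tested 4 rose and 7 fell at 3 hours (9.52% and 16.7%, beside 23.2% and 22.2% of all genes) and none rose and 4 fell at 3 days (9.52%, beside 7.0%). With scaling by total count 2 rose and 13 fell at 3 hours, and the 4 calls at 3 days were lost without cont 2, TL-3d 1 or TL-3d 2. LOC100358590, annotated as cytochrome P450 1B1, a known target of the aryl hydrocarbon receptor, had 0.902, 4.08 and 4.01 CPM in cont, 10.9, 93.2 and 25.98 in TL-3h and 0.725, 1.75 and 2.25 in TL-3d. TL-3h lay above every control (3.85 ± 0.89, adjusted p = 0.00581), with TL-3h 2 far above the others and a value of 2.58 without it. LOC100328910, annotated as glutathione S-transferase alpha I, had 605, 546 and 401 CPM in cont, 378, 272 and 360.1 in TL-3h, 67.1, 89.3 and 159 in TL-3d and 819.8, 185 and 292 in TL-14d. It fell at 3 days below every control and every TL-3h library (-2.30 ± 0.52, adjusted p = 0.0203, and up to 0.0781 without TL-3d 2), with TL-14d 1 again the highest of its group. LOC100342572, annotated as cytochrome P450 2E1, fell at 3 days from 1.45, 5.30 and 2.08 CPM to 0.02498, 0.0616 and 0, at least 35.0-fold (adjusted p = 0.0142, and up to 0.0583 without TL-3d 1). Without cont 2 this bound was 20.95-fold. LOC100348443, annotated as cytochrome P450 4F22, which takes part in making skin barrier lipids, fell at 3 hours (-2.46, adjusted p = 0.00991) and was higher in TL-3d than in TL-3h by 3.02.

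At the level of single transcripts, 77 of the 90 transcripts of members could be tested, and 14 members had at least 2 of them. In no comparison did transcripts of 1 member pass the test in opposite directions.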

How the data were processed

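Poly(A) RNA of 12 conjunctival samples was sequenced with a stranded kit in 150 bp paired-end mode. The authors aligned reads to OryCun2.0 with STAR 2.6.0c and deposited estimated counts and FPKM per gene and per transcript. Of the gene count values, 23.4% were fractions, as arise where reads shared between genes are divided, so counts of close relatives are uncertain.

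Estimated counts were rounded to whole numbers and tested with edgeR 4.0.16 in R 4.3.3 (TMM scaling, filterByExpr with a minimum count of 10 and a minimum total of 15, glmQLFit and glmQLFTest). All 12 libraries of the 4 groups entered 1 fit, without covariates, with a threshold of 0.05 on p-values after Benjamini-Hochberg adjustment over 14835 genes (26082 for transcripts). A gene with at most 3 counts in every library of a group was given as a bound on the fold computed with 3 counts per library. The bound uses the mean of the other group and does not take in its spread. The deposited FPKM served only to compare levels between genes. CPM are TMM-scaled. No library was a copy of another. Values of 1 member are not reported here; it is included in the counts over members.

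In each comparison with cont the named members were up to 15 called rises and up to 15 called falls of largest size with a group mean of at least 1 CPM, the member of each role with the highest FPKM in cont, and a set list. The members, the role, pathway and marker lists and the tests were chosen with earlier results of these data known. Alternatives were DESeq2 1.42.0 size factors and its test, scaling by library size alone, no filter on low counts, the replicate number as a block, only the 6 libraries compared, an added condition of an absolute log2 fold change of 1, and each library left out in turn. In simulated counts with 200 changed genes, the TL-3h against cont step on 14408 genes recovered 109 of the 200 with the right sign, among them 56 of 73 genes changed by 8-fold, and called 4 unchanged genes. In the data 45.4% of all genes were called at this step, so the simulated rates hold for their own setting only.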

Additional observations from a re-analysis of the deposited data

Results flagged for a closer look

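The effects of surgery at 3 hours and at 3 days were measured against the same controls, so the test of TL-3d against TL-3h is the test of their difference. Of the 59 members 23 passed it, a share near the 37.3% of all genes tested. With scaling by total count alone 13 members were higher and 5 lower. Only 11 of the 23 held without any one library: ALDH16A1, ALDH4A1, ALDH9A1, CYP2A11, DHRS7B, FMO4, GSTM2, LOC100353821, RDH11, RDH12 and SULT2B1. The log2 differences below 0, lower at 3 days, were ALDH7A1 -0.46, RDH11 -0.73, GSTM3 -0.92, ALDH2 -1.24, GSTM2 -1.61, CYP3A6 -1.99, CYP4A7 -2.42, CYP2B4 -3.49, SULT1E1 -3.81, CYP2B5 -4.54, DHRS9 -4.68, CYP2A11 -6.17 and LOC100353821 -9.58. The differences above 0 were GSTZ1 0.54, RDH13 0.61, DHRS7B 0.78, FMO4 0.84, ALDH16A1 1.02, ALDH9A1 1.25, ALDH4A1 1.31, SULT4A1 2.02, SULT2B1 2.20 and RDH12 4.65. SULT1E1 was at most 0.0308 CPM in TL-3d, within the level of 3 counts, so that it was at least 3.68-fold lower there, and its difference reached an adjusted p of 0.114 without TL-3h 3. CYP2B4 rested on single libraries, at -2.41 (adjusted p = 0.154) without TL-3h 1 and -5.91 without TL-3d 2. SULT2B1 was within that level in TL-3h and so at least 4.21-fold higher in TL-3d. As it met the minimum of 10 counts through the TL-3d libraries alone, its difference is a description only. DHRS9 was -8.55 without TL-3d 1. CYP4A7 was not called without TL-3h 1 or any TL-3d library. The test of TL-14d against TL-3d, in the same way, marked CYP4A7 at 3.46, CYP3A6 at 3.71, DHRS3 at 4.73 and CYP2A11 at 5.73. Groups of 3 are too small for a check of single outlying samples.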

How the results depend on the processing

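Counts of called members moved mostly with single libraries. With each library left out in turn they ranged from 13 to 26 at 3 hours, 2 to 25 at 3 days, 0 to 8 at 14 days, 13 to 26 for TL-3d against TL-3h and 0 to 12 for TL-14d against TL-3d. For TL-14d against TL-3d the DESeq2 test called 16 members and a fit of only the 6 libraries compared called 0, where the fit of all libraries called 4. The cause was not tested. ALDH7A1 in TL-3d against TL-3h turned from -0.46 to 0.0207 with scaling by library size alone, which shifts all genes in that comparison. The labels do not say whether replicate numbers pair the samples. Correlations of the deviations of same-numbered libraries were -0.153 to 0.517. Of the 12 libraries 9 correlated best with a library of their own number, a hint from the data and not from the design, so pairing is unknown. With the number as a replicate block 22 members were called at 3 hours, 20 at 3 days, 0 at 14 days, 21 for TL-3d against TL-3h and 1 for TL-14d against TL-3d. Against cont the block ended the calls of RDH10 (adjusted p = 0.0651) and CYP2C1 (0.0505) at 3 hours and of DHRS9 (0.0735) and UGT2B14 (0.0527) at 3 days. Over all members and a set of other genes with values in the text, 6971 of the recomputed fold changes kept the side of the threshold. These kept direction too or, if uncalled, moved by less than their SE. Of the others 363 lost the threshold, 135 gained it, 61 uncalled values moved beyond their SE and across 0, and 1 called value, that of ALDH7A1, changed direction. Depth limited the genes under 0.1245 CPM, such as CYP2C1 in TL-3h and DHRS9 in cont, where a fold is a bound.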
